A study of Homo sapiens with 2 samples.

Results

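To describe how MYBL2, a MYB family transcription factor of dividing cells, sits at the genes that supply deoxynucleotides (dNTPs), 9 genes were taken by name: *RRM1*, *RRM2*, *RRM2B*, *TYMS*, *TK1*, *DUT*, *DCK*, *DTYMK* and *SAMHD1*. They are 9 of 20098 protein-coding genes. For each gene, every MYBL2 peak with at least 1 base within 1000 bp of an annotated transcription start site (TSS) was counted as a promoter peak, and the strongest of them as its best promoter peak.

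The study profiled A673, an established Ewing sarcoma (EwS) cell line, by ChIP-seq in unmodified cells under standard culture. The groups were 1 MYBL2 immunoprecipitation and 1 input library of sheared DNA from the same line without antibody. The antibody is a rabbit monoclonal, called anti-MYBL2 in the sample labels and anti-p-MYBL2, directed at the activated form, in the methods. With 1 library per group and 1 cell line no value has a replicate error. No ChIP to input test was made beyond the authors' peak calling, which gave the p and q values. The labelled cell type cannot be checked, since peaks carry no expression markers. The peak list held 66954 peaks on the hg19 genome with a median fold enrichment of 3.79 (range 1.54 to 64.9). Fold enrichment is the authors' ratio of the fragment pileup at a peak's summit to the local background, each with 1 added. The pileup had a median of 20 fragments (range 11 to 293), and the local background never fell under 3.45 fragments. Intervals are 95% Poisson intervals of the pileup with the background held fixed, so they leave out the difference between libraries and the repeats of single molecules by PCR.

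Cells build dNTPs for DNA replication along a short chain of enzymes. Ribonucleotide reductase turns ribonucleotides into deoxyribonucleotides and is made of a large subunit (RRM1) with a small subunit, either the S phase form RRM2 or the p53-inducible form RRM2B. Thymidylate comes from deoxyuridine monophosphate through thymidylate synthase (TYMS), for which the dUTPase DUT provides substrate, or from thymidine through thymidine kinase (TK1), and thymidylate kinase (DTYMK) serves both routes. Deoxycytidine kinase (DCK) salvages deoxynucleosides, and SAMHD1 breaks dNTPs down again. Several of these genes are textbook targets of E2F factors or of the MuvB complex, which carries MYBL2 in proliferating cells and contacts DNA at the cell cycle homology region (CHR, read here as TTTGAA or TTCGAA). The CCAAT box, bound by NF-Y, often stands near it.

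The DNA under several of the peaks holds such elements. The following stretches were read from the GRCh37 assembly, which shares its coordinates with hg19, on the strand of each gene and 5′ to 3′. Capitals mark the motif matches, either CCAAT or its reverse complement ATTGG, a CHR (TTCGAA), or an E2F motif (GCGGGAAA or TTTGGCGC). They were chosen because each carries a CHR, an E2F match or a CCAAT box that is discussed with its gene. Positions count from the first base of the canonical TSS as 0, with negative values upstream. The 3 *RRM2* stretches, at chr2:10262735-10262755, chr2:10262765-10262785 and chr2:10262792-10262812 on the plus strand, have their boxes at −123, −93 and −66. The 2 *TK1* stretches, at chr17:76183198-76183218 and chr17:76183167-76183187 on the minus strand, have theirs at −77 and −46. The *RRM1* stretch is chr11:4116000-4116029 (plus), with its CHR at −17. The *TYMS* stretch is chr18:657606-657629 (plus), with its E2F match at −39. The *DTYMK* stretch is chr2:242626303-242626328 (minus), with a CCAAT box at −92 and a CHR at −84. The *DUT* stretch is chr15:48624349-48624377 (plus), with E2F matches at +726 and +741. The *SAMHD1* stretch is chr20:35580372-35580428 (minus), with a CHR at −311 and CCAAT boxes at −294 and −271.
RRM2 CCAAT 1: aggcgcagCCAATgggaaggg
RRM2 CCAAT 2: tggcacagCCAATgggaaggg
RRM2 CCAAT 3: caccaaagCCAATgggaaggg
TK1 CCAAT 1: gggcgctgATTGGccccatgg
TK1 CCAAT 2: ggctcgtgATTGGccagcacg
RRM1 CHR: cgagtaacgtcaTTCGAAccccgtcgcgcc
TYMS E2F: ggacggccGCGGGAAAaggcgcgc
DTYMK CCAAT and CHR: ccccggCCAATcccTTCGAAtttggc
DUT E2F pair: ctgGCGGGAAAtttcggtTTTGGCGCgct
SAMHD1 CHR and CCAAT: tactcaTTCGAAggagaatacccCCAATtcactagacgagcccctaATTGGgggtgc

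All 9 genes had a MYBL2 promoter peak, against 59.4% of protein-coding genes. In 8 of 9 the best promoter peak had a fold enrichment of at least 5, against 49.6% of protein-coding genes. The exception was *SAMHD1*. In 6 of 9 it lay above 8.67, the median best promoter peak of the protein-coding genes that had one, and 29.7% of all protein-coding genes reach that level. The 6 were *RRM2*, *TK1*, *TYMS*, *DTYMK*, *RRM1* and *DUT*. The median of the 9 best peaks was 12.9, with a range from 4.65 to 23.6, while the quartiles of bound protein-coding genes were 5.94 and 12.1. The counting interval lay wholly above the median in 5 genes, held it in *DUT* and *DCK*, and lay wholly below it in *RRM2B* and *SAMHD1*. These positions depend on the reference, since the median over every protein-coding promoter peak counted 1 time, a reference chosen after seeing the data, was 4.94. Against it 8 of 9 genes were above, *RRM2B* and *DCK* included, and only the value of *SAMHD1* was below. The intervals of *RRM2B* and *SAMHD1* held it. This is a low bar for a best peak. Of the 11941 protein-coding genes with a promoter peak, 9970 had a best peak of at least 5.

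**Figure D1:**
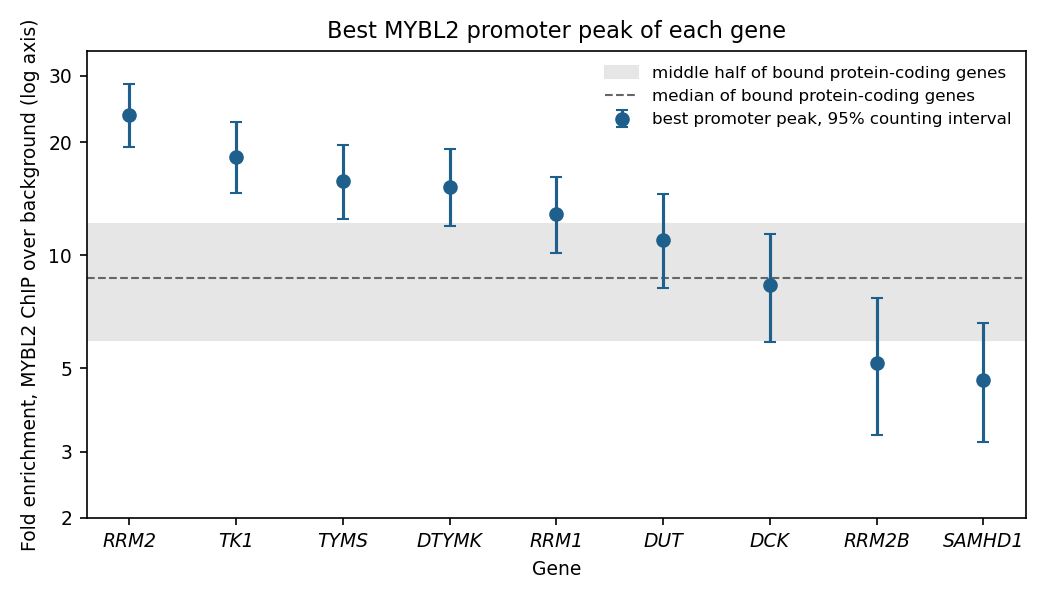
Fold enrichment of the best MYBL2 promoter peak of each gene on a log axis, with bars for the 95% counting interval, a dashed line at the median of bound protein-coding genes (8.67) and a grey band between their quartiles. Values fall from 23.6 at *RRM2* to 4.65 at *SAMHD1*, and the bars of *RRM2B* and *SAMHD1* end below the dashed line.

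Among the ribonucleotide reductase genes, the S phase small subunit stood far above the alternative one. *RRM2* had the highest best promoter peak of the 9 genes, with a fold enrichment of 23.6 (95% interval 19.4 to 28.5) from a summit pileup of 105 fragments over a background of 3.49. It was stronger than 96.4% of bound protein-coding genes, ranked 361 among all 66954 peaks and had a −log10 q of 109.6. This peak, at chr2:10260275-10264246, was also broad. Its 3972 bp exceeded the width of 97.8% of the best promoter peaks of protein-coding genes, whose median was 865 bp, and its summit lay at −22 bp from the canonical TSS.

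The 3 CCAAT boxes printed above lay just upstream of that summit, and the last began 44 bp before it. They were spaced by 30 and 27 bp, all read along the gene, and the windows shared 13 bases from the box onward. Of all protein-coding promoters (250 bp before to 50 bp after the canonical TSS, 19819 genes), 3.88% held 3 or more CCAAT matches, and of those of bound genes 5.15%. No match to the CHR, E2F or MYB letters was found in the same *RRM2* window.

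*RRM1*, the large subunit, had a fold enrichment of 12.9 (10.1 to 16.2) from a pileup of 72 over a background of 4.66, with a −log10 q of 55.0. The peak at chr11:4115283-4116282 had its summit in the 5′ UTR, 3 bp after the canonical TSS, and was stronger than 78.5% of bound protein-coding genes. *RRM1* was the only one of the 9 genes with a CHR within 50 bp of its best summit. That match began 20 bp before the summit, and 3.88% of 10178 distinct best promoter peaks of protein-coding genes held a CHR so close.

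*RRM2B*, the alternative small subunit, had a fold enrichment of 5.17 (3.32 to 7.71) from 22 fragments over the background floor of 3.45, and a −log10 q of 8.83. Only 17.5% of bound protein-coding genes were weaker. It was the only gene of the 9 whose best peak, at chr8:103251668-103251951, did not cover the canonical TSS, and its summit lay upstream, at −641 bp. The second *RRM2B* peak was about as strong, with a fold enrichment of 4.49 from 19 fragments and a summit in the first coding exon, 129 bp after the canonical TSS. The *RRM2* pileup was 4.77 times that of *RRM2B* (exact 95% interval of the ratio 2.99 to 7.94) and 1.46 times that of *RRM1* (1.07 to 2.00). The *RRM1* pileup was 3.27 times that of *RRM2B* (2.01 to 5.54). Ratios of fold enrichment, which take in the local background, were 4.57, 1.83 and 2.49 in the same order. The intervals of fold enrichment did not overlap in any of these pairs. All 3 pairs differed beyond counting error within this library.

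The genes of thymidylate supply had fold enrichments from 11.0 to 18.3, all above the protein-coding median. *TK1*, the salvage kinase of S phase, led them with 18.3 (14.6 to 22.6) from 84 fragments over 3.66, and was stronger than 92.0% of bound protein-coding genes. Its peak at chr17:76182861-76183660, the only promoter peak of the gene, had a −log10 q of 78.0 and a summit in the 5′ UTR, 16 bp after the canonical TSS and exactly on another annotated TSS. The CCAAT boxes printed above were spaced by 31 bp and ended 89 and 58 bp before the summit, both in ATTGG orientation. The same peak lies in the promoter window of *AFMID*, a protein-coding gene of tryptophan breakdown, and cannot be assigned to 1 of the genes.

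*TYMS*, the synthase itself, had a fold enrichment of 15.8 (12.5 to 19.7) from 77 fragments over 3.95 and a −log10 q of 66.2. The peak at chr18:657182-658923 spanned 1742 bp and covered the canonical TSS, but its summit lay 614 bp downstream in intron 1, 3 bp from another annotated TSS. The E2F match of the *TYMS* promoter therefore stood inside the peak but far upstream of its summit. Of all protein-coding promoters, 4.38% held an E2F match. The antisense lncRNA *TYMSOS* and the lncRNA ENSG00000263727 share this peak.

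*DTYMK*, the next kinase in the chain, had a fold enrichment of 15.2 (11.9 to 19.1) from 71 fragments over 3.73 and a −log10 q of 60.3. Its peak at chr2:242624817-242626978 was 2162 bp wide, with the summit at −280 bp from the canonical TSS in the direction of *ING5*, a chromatin reader gene whose promoter window it also overlaps. The CHR and the nearest CCAAT box of *DTYMK*, printed above, start 8 bases apart between this summit and the TSS. Anywhere from 250 bp before to 50 bp after the canonical TSS, 2 of the 9 promoters held both a CHR and a CCAAT box, *DTYMK* and *RRM1*. In *RRM1* they were far apart, at −17 and −142. Both occurred in 5.44% of all protein-coding promoters and in 4.61% of those of bound genes.

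*DUT*, which removes dUTP and so keeps uracil out of DNA, had a fold enrichment of 11.0 (8.18 to 14.5) from 48 fragments over the floor of 3.45, with a −log10 q of 34.4. The summit of this peak, at chr15:48623282-48624057, lay in the first coding exon, 277 bp after the canonical TSS. *DUT* had a second peak of 7.86 (5.51 to 10.9) from 34 fragments at chr15:48624186-48625097, 33 bp from the TSS of an internal transcript. The E2F pair printed above belongs to the second peak and starts 88 bp before its summit. The antisense lncRNA *DUT-AS1* shares both peaks.

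The other salvage kinase and the dNTP hydrolase had weaker peaks. *DCK* had a fold enrichment of 8.31 (5.89 to 11.4) from 36 fragments over the floor of 3.45, with a −log10 q of 21.6, and 46.5% of bound protein-coding genes were weaker. Its only promoter peak, at chr4:71858944-71860023, had its summit at −268 bp from the canonical TSS. An E2F match (GCGCCAAA) started 21 bp after that TSS.

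*SAMHD1* had the lowest best peak of the 9, with a fold enrichment of 4.65 (3.19 to 6.58) and a −log10 q of 10.2, above 13.1% of bound protein-coding genes. Its only promoter peak, at chr20:35579977-35580484, had its summit at −245 bp from the canonical TSS. The pileup of 30 fragments was higher than that of *RRM2B*, but it stood over a background of 5.66, the highest among the 9 best peaks, which puts *SAMHD1* last by fold enrichment and *RRM2B* last by pileup and by −log10 q. The *SAMHD1* summit had 2 CCAAT boxes within 50 bp, as 1.25% of protein-coding best peaks did, and the CHR printed above began 66 bp before it.

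**Figure D2:**
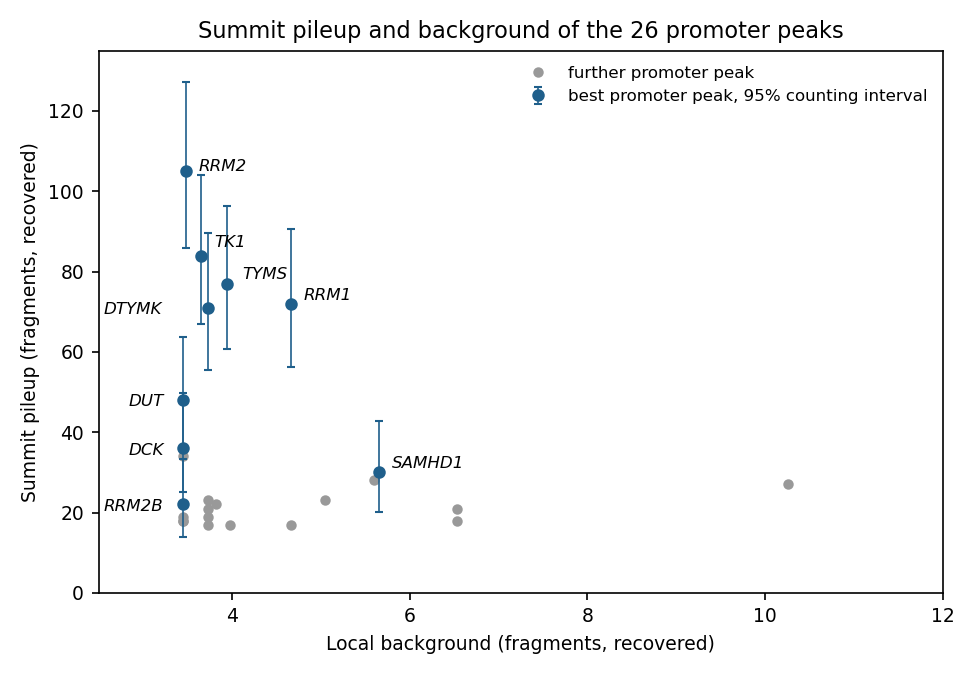
Recovered pileup at the summit against the local background, in fragments, for the 26 promoter peaks of the 9 genes, with best peaks in blue and 95% counting intervals as bars. The best peaks of *RRM2*, *TK1*, *TYMS*, *DTYMK* and *RRM1* have 71 to 105 fragments over backgrounds of 3.49 to 4.66, while *SAMHD1* has 30 over 5.66 and *RRM2B* 22 over 3.45.

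In the order *RRM2*, *TK1*, *TYMS*, *DTYMK*, *RRM1*, *DUT*, *DCK*, *RRM2B* and *SAMHD1*, neighbours could mostly not be told apart. The intervals of fold enrichment overlapped in all 8 neighbouring pairs. The pileup ratio had an interval without 1 only between *RRM1* and *DUT* (1.50, 1.03 to 2.21), where the ratio of fold enrichment was 1.17. Genes farther apart in the order did differ, such as *TK1* and *DCK*, 2 kinases of the salvage route, with a pileup ratio of 2.33 (1.56 to 3.55). Between *DUT* and *SAMHD1* the intervals of fold enrichment did not overlap, but the pileup ratio of 1.60 (0.993 to 2.62) included 1.

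No further promoter peak reached the median of best protein-coding promoter peaks, though the second peaks of *RRM2B* and *DUT* had intervals that overlapped the interval of the best peak. The 9 genes had 26 promoter peaks, 1 each in *TK1*, *DCK* and *SAMHD1*, 2 in *RRM2B* and *DTYMK*, 4 in *RRM2* and 5 in *RRM1*, *TYMS* and *DUT*. The 17 further peaks ranged from 2.49 to 7.86 with a median of 4.27, and 0 of them exceeded the protein-coding median of 8.67. That median is taken over best peaks only, and no further peak of *RRM2B* could pass it. Every protein-coding promoter peak counted 1 time had a median of 4.94. Further peaks of *DUT* (7.86), *DTYMK* (5.17) and *RRM2* (5.07) were above that value, and the remaining ones below. Of the 4 further *RRM1* peaks, 3 lay in introns 7 and 9 near internal start sites, with fold enrichments of 3.18 to 4.27. The further *RRM2* peaks had values of 4.40 to 5.07 in introns 5 and 7, and those of *TYMS* values of 2.49 to 4.77 in introns 1 and 3. The 9 genes have a median of 7 distinct TSSs (5 in *TYMS* and *DCK* to 20 in *SAMHD1*), against 5 for protein-coding genes, so they offer more promoter windows than the median gene. The best peak of every gene was the same when its canonical TSS alone was used.

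The edge of the promoter window separated weak peaks of similar strength. The farthest peaks inside it were 889 bp (*DTYMK*, fold enrichment 5.17), 867 bp (*TYMS*, 4.77) and 845 bp (*TYMS*, 2.92) from a TSS. The nearest ones outside were 1042 bp (*DUT*, 3.13), 1088 bp (*RRM2*, 5.80) and 1107 bp (*TYMS*, 7.36) away.

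Along the genes and 10 kb either side, peaks were dense at some members and sparse at others. *DTYMK* had 17 peaks, or 5.45 per 10 kb, *TYMS* 17 (4.73 per 10 kb), *TK1* 10 (3.02) and *DUT* 9 (2.78). *RRM1* had 9 (1.40) and *RRM2* 11 (0.991). The *RRM2* density is taken over 111 kb, since the annotated gene spans 91.0 kb. All 11 *RRM2* summits lay between −22 and 15036 bp from its canonical TSS. *RRM2B* with 2 peaks (0.367) and *DCK* with 2 (0.343) were close to the protein-coding median of 0.299 per 10 kb, and *SAMHD1* had 1 peak, or 0.122 per 10 kb. Peaks outside a gene's own promoter windows were weaker than its best promoter peak in all 7 genes that had any. Promoters of neighbouring genes were not excluded here, so some of these peaks may lie at one. The highest of these peaks was 7.59 at *TYMS*, 17476 bp after the canonical TSS, and the next 7.36 at the same gene.

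**Figure D3:**
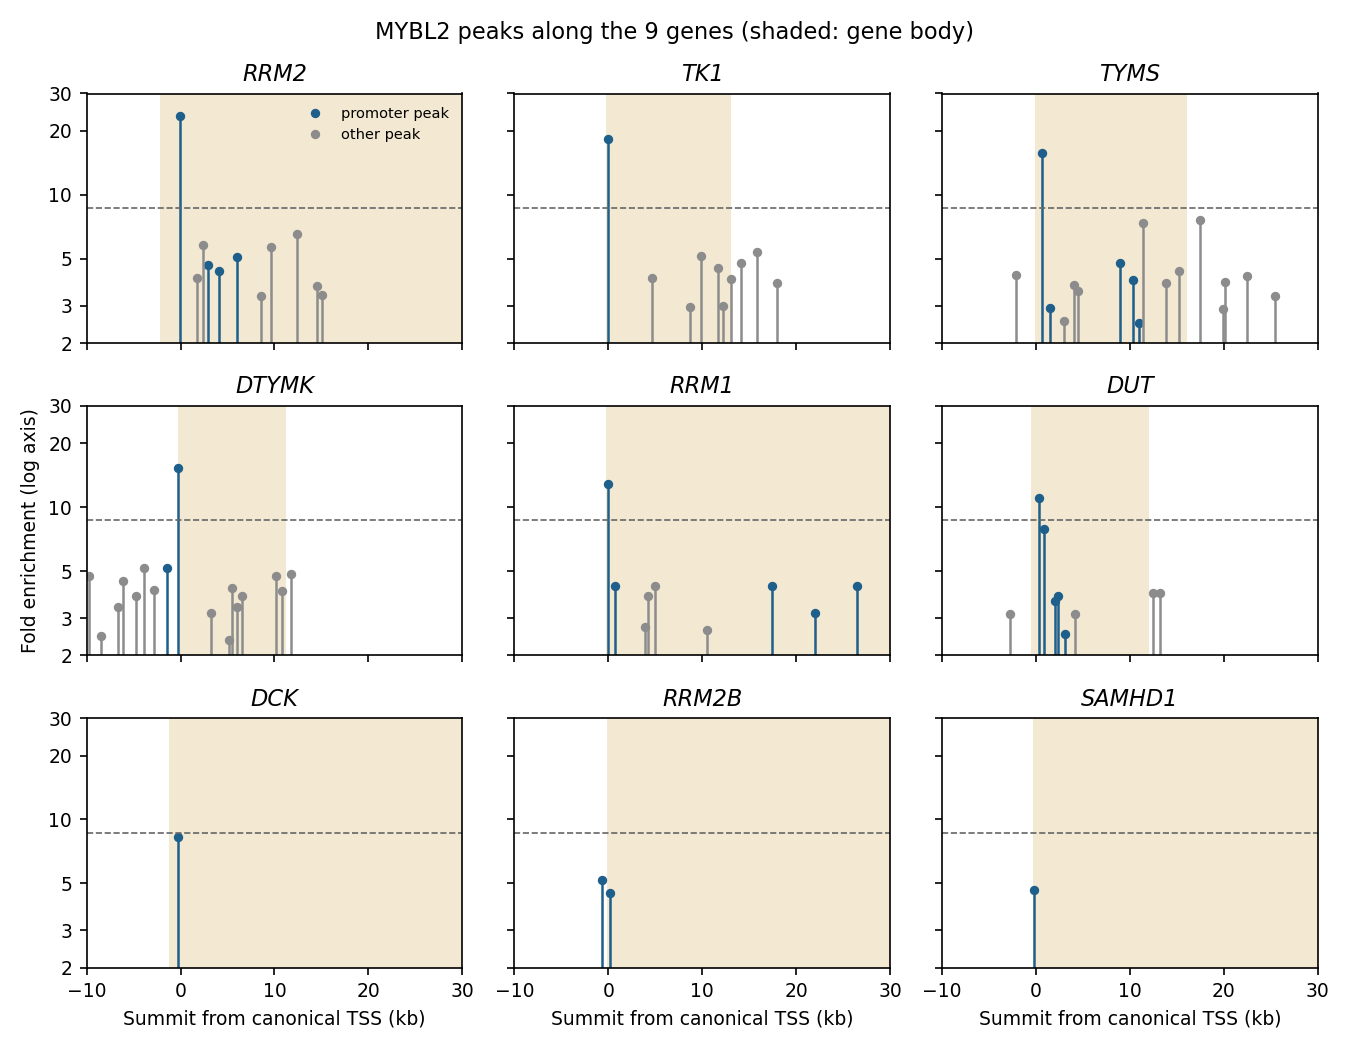
Fold enrichment (log axis) of each peak by the distance of its summit from the canonical TSS in kb, along the direction of transcription, with promoter peaks in blue, other peaks in grey and the gene body shaded. The dashed line is the protein-coding median of 8.67, and in *RRM2*, *TK1*, *TYMS*, *DTYMK*, *RRM1* and *DUT* only the best promoter peak rises above it. A *DCK* peak of 3.59 at 36581 bp lies outside the plotted range.

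CpG content was high at most of the promoters. By the observed over expected CpG ratio within 500 bp of the outermost TSS, 8 of 9 genes were CpG-rich (at least 0.6), as were 59.7% of protein-coding genes. *DCK*, at 0.326, was the exception, though its canonical TSS had a ratio of 0.735. Shares were higher among the 12000 CpG-rich protein-coding genes than among all. Of them 9491 had a promoter peak, 8210 had one with a fold enrichment of at least 5, and 42.3% were above 8.67. Against the CpG-rich protein-coding genes with a promoter peak, whose median was 9.07, 6 of the 9 genes were again above. *RRM2* was then stronger than 96.0% of genes, *RRM2B* than 14.3% and *SAMHD1* than 10.5%.

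The 6 motifs were sought on both strands, each given here in 1 direction. They were E2F (TTTCCCGC or TTTCGCGC or TTTGCCGC or TTTGGCGC), the CHR, the CCAAT box, MYB (CAACGG or CAACTG or TAACGG or TAACTG), ETS (CCGGAAGT) and the GC box (GGGCGG). The CHR form TTCGAA reads alike on both strands and was counted 1 time, and matches of different motifs did not overlap at the 9 genes. Within 50 bp of the best summit, 3 of 9 genes held any of the 6 motifs, against 47.0% of protein-coding best peaks. They were *RRM1* with the CHR and *RRM2* and *SAMHD1* with CCAAT boxes, which 9.72% of protein-coding best peaks held. There were 0 matches to MYB (8.43% of best peaks), E2F (1.75%), ETS (3.48%) or the GC box (29.3%).

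In the promoters, 250 bp before to 50 bp after the canonical TSS, the CCAAT box stood in 5 of 9 genes, against 36.0% of protein-coding promoters. It occurred 2 or more times in 4 of them (*RRM2*, *TK1*, *DTYMK* and *SAMHD1*), against 12.3%. E2F matches were found in *TYMS* and *DCK* (4.38%), the CHR in *RRM1* and *DTYMK* (12.8%) and MYB letters in *DUT* at −111 and *SAMHD1* at −76 (23.9%). The GC box was present in 5 (61.5%), and ETS in 0 (6.18%). These are matches of letters, and a window without a match says nothing of the factor. Among the promoters of 11918 bound protein-coding genes, as all 9 genes are, the shares were mostly different. They were 37.0% for the CCAAT box, 14.0% for 2 or more, 5.60% for E2F and 10.4% for the CHR. MYB stood in 23.3%, the GC box in 74.3% and ETS in 9.67%.

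The rest of nucleotide metabolism was bound at similar rates but with lower values than the leading dNTP genes. Of 52 further genes of the pathway, 51 had a promoter peak, 46 had one of at least 5, and 31 were above 8.67, with a median of 9.66. The 6 genes of the folate cycle, which feeds TYMS, had a median of 11.2 and 5 of them were above 8.67. *MTHFD2*, a mitochondrial folate enzyme, had 15.8 and *MTHFD1* 11.5, while *SHMT1* had 8.31 and *MTHFS* 8.85.

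Genes that build ribonucleotides had medians on either side of the pathway median of 9.66. The 5 genes of pyrimidine synthesis had a median of 10.8 with 3 above 8.67, from *CAD* (11.8), which holds the first steps, and *CTPS1* (11.3) down to *CTPS2* (7.19) and *DHODH* (3.66). The 12 genes of purine synthesis had a median of 8.92 with 6 above, from *IMPDH2* (17.1), the enzyme that commits to guanine nucleotides, and *GART* (14.0) down to *PRPS1* (6.13) and *ATIC* (5.98). *PPAT* and *PAICS* share 1 peak of 8.54.

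The 9 genes of salvage had a median of 9.21 with 5 above 8.67. The mitochondrial deoxyguanosine kinase *DGUOK* had 14.4 (11.1 to 18.3), above its cytosolic relative *DCK* with overlapping intervals. *UCK1* followed at 11.2, and *CDA* (4.78) and *HPRT1* (4.15) were lowest. For the thymidine kinases the order was the other way. The mitochondrial *TK2*, named here after its value was seen, had 10.6 (7.87 to 13.9), and its interval did not reach that of *TK1*.

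Of the 9 nucleotide kinases 8 had a promoter peak, with a median of 9.76 and 6 above 8.67. *NME2* had 12.4, *CMPK2* (7.64) and *AK1* (5.09) were lowest, and *AK4* had no promoter peak. The 11 genes that clean or break down the pool, as SAMHD1 does, had a median of 8.99 with 6 above 8.67. *PNP* (14.2) and *NUDT1* (13.6), which removes oxidised nucleotides, were highest, and *ADA* (4.22) and *UPP1* (4.06) were in the range of *SAMHD1*.

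Genes of the replication machinery, which use the dNTPs, were set beside them. All 31 had a promoter peak, with a median of 11.5, and 27 were above 8.67. They ranged from *MCM5* (4.86), a subunit of the replicative helicase, to *RFC3* (23.1), a clamp loader subunit, close to the value of *RRM2*. The medians of the 9 dNTP genes and the replication genes, 12.9 and 11.5, were both above the 8.67 of protein-coding genes, and the spread within each group was wider than the gap between them.

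**Figure D4:**
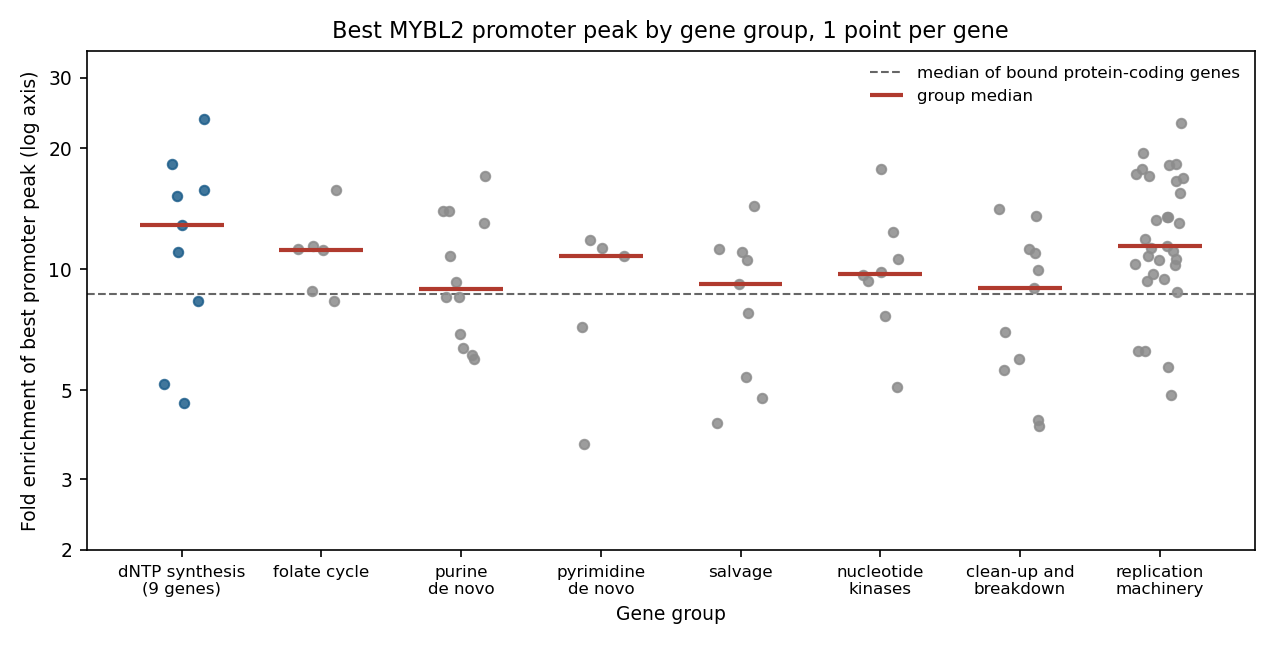
Fold enrichment (log axis) of the best MYBL2 promoter peak, 1 point per gene, for the 9 dNTP genes, 6 other groups of nucleotide metabolism and the replication machinery, with red bars at the group medians and a dashed line at the protein-coding median of 8.67. Group medians run from 8.92 (purine synthesis) to 12.9 (the dNTP genes), and *AK4* has no point because it has no promoter peak.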

How the data were processed

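The authors aligned single-end reads of 1 MYBL2 ChIP library and 1 input library from A673 cells to hg19 and called narrow peaks against the input (Bowtie2 2.1.10 and MACS2 2.0.10 in the submitters' processing notes). The deposited list gives each peak a fold enrichment (a ratio), a −log10 p-value, a −log10 q-value and a score, which equalled the whole part of 10 times the −log10 q in all 66954 peaks. What a cleaning step removed is not given in the sources used here. The input library was used only through the peak list.

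The 9 genes, the pathway lists, the motifs and the alternatives were chosen with earlier results of these data known. TSSs came from GENCODE 44 lifted to GRCh37, chromosomes and gene IDs as given there, and 0 peaks lay beyond a chromosome end. A peak shared by several genes was counted for each. The counts of protein-coding motif windows used each best peak 1 time. Text names all 9 genes, genes sharing their peaks, the 2 highest and 2 lowest genes per pathway group, the highest and lowest replication gene, and genes without a promoter peak, and 2 of the genes this rule names are not reported here.

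Summit pileups and backgrounds were recovered by solving the caller's formulas for fold enrichment and Poisson p together. A whole-number pileup met every peak within 3.49e-05 in −log10 p, against 0.038 or more for the next whole number. With the caller's preset genome size and the smallest peak width (164 bp) as fragment length, the background floor of 3.45 corresponds to about 56800000 ChIP reads. Intervals are Poisson at 95%, and pileup ratios have exact conditional binomial intervals. No test was made beyond the authors' peak calling, since each group had 1 library. Scripts used Python 3.11.15, numpy 2.4.6, pandas 2.3.3, scipy 1.17.1, pysam 0.24.0 and matplotlib 3.10.9. Only the recovery of pileups and the assignment of peaks to promoters were tested on simulated data. Alternatives changed the promoter window, the TSS set, the peak threshold, the ranking value, the reference genes and the motif window.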

Additional observations from a re-analysis of the deposited data

How the results depend on the processing

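Of 98 alternative values, 96 stayed close to those reported, 62 of them for single genes and 34 for counts or medians. The exceptions were the genes with any of the 6 motifs, 3 within 50 bp of the summit, which became 6 within 100 bp and 9 in the promoter of the canonical TSS, a window chosen after seeing the data. The wider windows hold a motif in 74.3% of protein-coding best peaks and 87.4% of protein-coding promoters. Close means inside the counting interval for a single gene or the median. For counts it means a looser ratio, under which 8 genes above the reference passed as close to 6. The 62 values for single genes were all unchanged, and the peak thresholds can only drop a best peak. *SAMHD1* had no value at a fold enrichment of at least 5, and this loss is not among the 98. Requiring a fold enrichment of at least 5 left 8 genes with a promoter peak, without *SAMHD1*, a median of 14.1 and 6 genes above a reference median of 9.66. The same 6 genes were above the reference median in every alternative but the one, also chosen after seeing the data, that counted each promoter peak 1 time as reference (median 4.94). It put 8 genes above, with *RRM2B* and *DCK* added, but most bound genes pass it. A best peak of at least 5 was found in 9970 of the 11941 protein-coding genes with a promoter peak. Using only the canonical TSS, likewise added later, changed no gene's best peak. No paired analysis was possible because the ChIP and the input comprise 1 library each, and no library could be left out. Depth limits the weak peaks most. The interval of *RRM2B* ran from 3.32 to 7.71 on 22 fragments, and no interval holds the spread between libraries.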
